A study of Danio rerio with 5 samples.

Results

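Of the 9559 circular RNAs (circRNAs) listed in zebrafish embryos across 5 ages, 358 were present in both of the youngest libraries and in neither of the oldest. These early circRNAs were selected on their measured back-splice junction reads: above 0 at 4.5 and at 8 hours post fertilization (hpf), 0 at 48 and at 72 hpf, and any value at 24 hpf. Of the 358, 75 were listed at 24 hpf and 283 were not. They are compared here with the 289 circRNAs that were also listed at 4.5 and 8 hpf but were listed again at 48 or 72 hpf, called lasting circRNAs below. Together the early and the lasting circRNAs made up the 647 that were listed at both 4.5 and 8 hpf.

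The study counted back-splice junction reads in whole wild-type embryos of the strain that the labels spell Tubingenz, raised from spontaneous matings, with 1 library of ribosomal RNA-depleted total RNA at each age. By the labels, the embryos were blastulae at 4.5 hpf, gastrulae at 8 hpf and in segmentation at 24 hpf, and the stages of the 48 and 72 hpf samples were named throat and incubation. The labels do not state how many embryos went into a library. No age had a replicate, so no p-value was computed, and every interval below is a 95% interval. Those of levels and ratios cover the counting error of reads only. Those of medians and shares are taken over circRNAs, treated as independent. None covers differences between embryos or libraries of the same age.

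A circRNA is a closed loop that forms when the spliceosome joins a downstream splice site back to an upstream one, so that the product has no free ends. The lack of ends shields it from the exonucleases that degrade linear RNA, and circRNAs are known for long lifetimes in cells. An early fish embryo runs on RNA that the mother placed in the egg, switches on its own genome during the blastula period, and clears much of the maternal RNA around that time. The deposited tables name circRNAs by position only and pair none with a gene, so neither host genes nor tissue marker genes could be looked at.

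The libraries held between 9563 (24 hpf) and 24580 (8 hpf) junction reads, and no listed circRNA had fewer than 2 reads. Levels are given in SRPBM, the authors' score, in which junction reads are scaled to the depth of the library. From the youngest library to the oldest, a read was worth 0.101, 0.0872, 0.103, 0.102 and 0.122 SRPBM. The 8 hpf library stood apart, since scaffold KN150127.1 alone gave 8454 of its reads, against 40 at 4.5 hpf and 7 at 24 hpf. One of the early circRNAs lies on that scaffold, and summed values are therefore given without it.

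The early circRNAs were mostly scarce. Their median was 4 reads at 4.5 hpf (quartiles 3 and 9) and 4 reads at 8 hpf (quartiles 3 and 6), against 9 and 7 for the lasting circRNAs. Of the 358, 25 had the lowest listed value of 2 reads at both ages, and 24 had at least 20 reads at 4.5 hpf. Just outside the rule lay 59 lasting circRNAs that had 2 reads in 1 of the 48 and 72 hpf libraries and were not listed in the other, with medians of 6 reads at 4.5 hpf and 4 at 8 hpf. The share of circRNAs listed at 4.5 and 8 hpf that met the rule went down with abundance, from 72.3% of those with 2 reads at 4.5 hpf (63.3 to 80.1) to 22.9% of those with 20 or more (15.2 to 32.1). The rule used these reads, so the gradient is a description.

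For most of them, absence at the later ages could not be told from a level too low to see. Unlisted circRNAs were taken as 3 reads, and folds against them are lower bounds at that setting. At 4.5 hpf, 108 of the 358 had a level at least 2 times that of 3 reads in both later libraries, 43 were at least 4 times above it and 10 at least 10 times. At 8 hpf, the numbers were 50, 10 and 2. These compare the counted level with a fixed setting and leave out the counting error of the 4.5 hpf library. With that error, against 0 reads at 48 and 72 hpf, the interval lay at least 2-fold below 4.5 hpf for 66 of the 358, and for 36 if an unlisted circRNA had 1 read. Of the 43, 21 were still listed at 24 hpf.

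The 10 early circRNAs with most reads were lower at 24 hpf than at 4.5 hpf or not listed there, and 9 of them already had fewer reads at 8 hpf. The most abundant at 4.5 hpf lay on chromosome 15 from 4242564 to 4251905, and its reads in order of age, from 4.5 to 72 hpf, were 100, 22, 5, 0 and 0. Its level was 5.27-fold lower at 8 than at 4.5 hpf (3.29 to 8.78). Against 4.5 hpf, it was at least 33.1-fold lower at 48 hpf and at least 27.5-fold lower at 72 hpf. Each of its 3 youngest libraries lay below the one before, and no later circRNA overlapped it. On chromosome 24, 9051933 to 9052722 had 65, 61, 9, 0 and 0 reads. Its levels at 4.5 and 8 hpf did not differ beyond counting error (1.23-fold lower at 8 hpf, 0.857 to 1.78), and it was 5.74-fold lower at 24 than at 8 hpf (2.83 to 13.1). The chromosome 15 one was also lower at 24 than at 8 hpf (3.72-fold, 1.38 to 12.6), so their intervals were apart in the step from 4.5 to 8 hpf only. Also on chromosome 24, 33633131 to 33635992 had 64, 36, 12, 0 and 0 reads, 2.06-fold lower at 8 hpf (1.35 to 3.19) and 2.54-fold lower again at 24 hpf (1.29 to 5.36). Later circRNAs overlapped both chromosome 24 ones, 1 over 9051933 to 9052722 and 3 over 33633131 to 33635992.

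Another 3 of the leading circRNAs were listed at 4.5 and 8 hpf alone. Chromosome 10, 41368493 to 41374060, had 71, 13, 0, 0 and 0 reads, 6.33-fold lower at 8 hpf (3.47 to 12.5). Chromosome 15, 21583828 to 21599671, had 61, 11, 0, 0 and 0 reads, 6.42-fold lower (3.35 to 13.5). Chromosome 3, 3630725 to 3645305, had 64, 16, 0, 0 and 0 reads, 4.63-fold lower (2.65 to 8.59). Against 4.5 hpf, all 3 were at least 20.2-fold lower at 48 hpf and at least 16.8-fold lower at 72 hpf. The chromosome 3 one, however, was overlapped by 4 later circRNAs. Another of nearly equal span lay at a shifted position, 3610015 to 3624151, with 3 reads at 48 hpf. The other two had no later circRNA over them. Chromosome 25, 36475533 to 36498775, had 54, 11, 3, 0 and 0 reads. Chromosome 19, 46850585 to 46865341, had 54, 10, 2, 0 and 0 reads. For both, the step from 8 to 24 hpf was within counting error. The chromosome 25 one had no later circRNA over it. The chromosome 19 one shared its end with 46860397 to 46865341, which had 2 reads at 72 hpf. On chromosome 15, 155239 to 516473, which spans 361234 bp and is the longest of the set, had 50, 10, 8, 0 and 0 reads, with levels at 8 and 24 hpf that did not differ beyond error (1.06-fold lower at 24 hpf, 0.376 to 3.08). A circRNA that used the same end and started 27 bases further in had 0, 0, 0, 2 and 0 reads, so a loop of nearly the same position was listed at 48 hpf, with the lowest listed count.

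**Figure D1:**
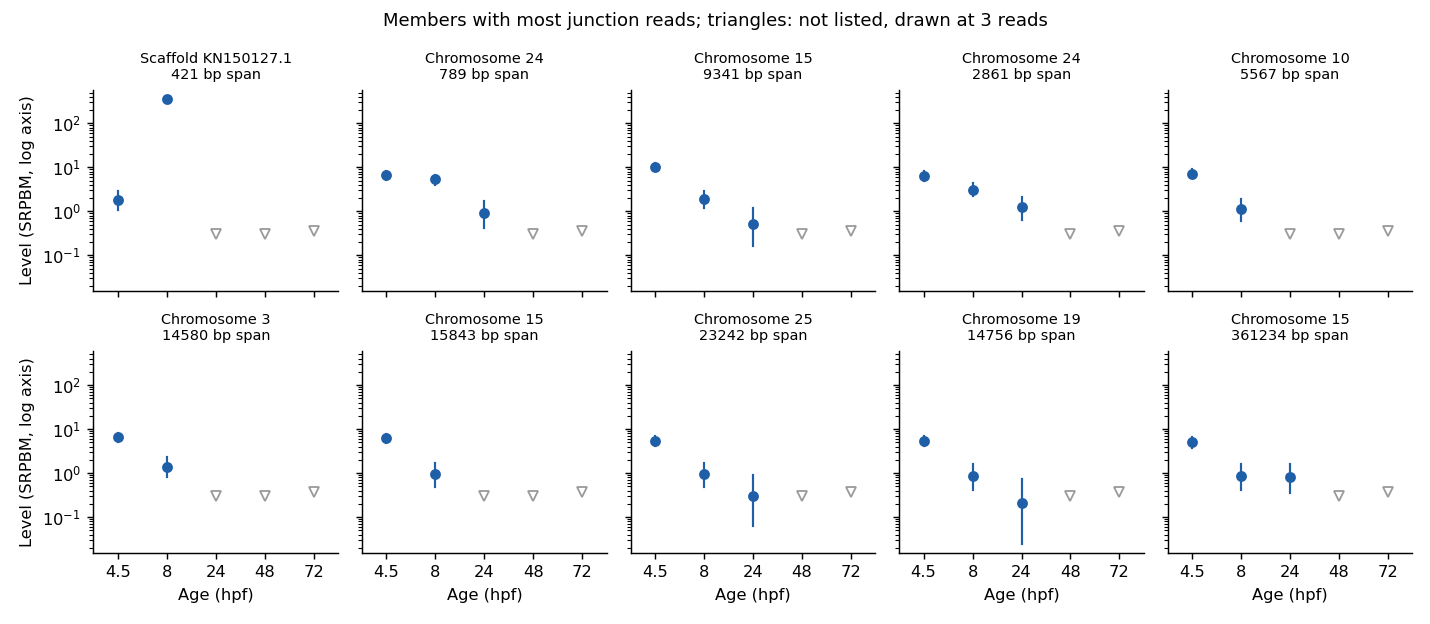
Level in SRPBM (log axis) against age in hpf for the 10 early circRNAs with most reads at 4.5 and 8 hpf, 1 panel each. Filled points carry 95% Poisson counting intervals, and open triangles mark libraries where the circRNA was not listed, drawn at the level of 3 reads; all but the scaffold circRNA were highest at 4.5 hpf.

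The circRNA of scaffold KN150127.1, 15984 to 16405, ran against the rest. It had 18, 4025, 0, 0 and 0 reads, so its level went from 1.82 SRPBM at 4.5 hpf to 350.9 SRPBM at 8 hpf. It held 4025 of the 5951 reads that the early circRNAs had at 8 hpf. Its exact position was not listed later, while other positions of the same scaffold had 1585 reads at 48 hpf and 1942 at 72 hpf. The later circRNA that shared its end, 6310 to 16405, had 7 reads, at 72 hpf. Whether the later reads of the scaffold relate to this junction was not tested.

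Between blastula and gastrula, the early circRNAs were lower far more often than higher, and so were the lasting ones. Of the 159 early circRNAs with at least 10 reads over both libraries, 76 (47.8%) were at least 2-fold lower at 8 hpf and 17 (10.7%) at least 2-fold higher. Of the 212 lasting ones, 102 (48.1%) were lower and 16 (7.55%) higher. Over all circRNAs listed at both ages the background was 48% lower and 8.89% higher, and over all circRNAs with enough reads, listed at both ages or at 1 of them, it was 50.3% lower and 20.4% higher. Counting only ratios whose interval excluded 1, 49 early circRNAs were lower and 3 higher, where 31.5% of circRNAs listed at both ages were lower and 3.5% higher. The rule required reads at both ages, so these counts are descriptions, and the share lower was near the background.

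The median log2 ratio of 8 over 4.5 hpf was -0.80 for the 159 early circRNAs (-1.12 to -0.57) and -0.86 for the 212 lasting ones (-1.14 to -0.56). The early circRNAs were spread widely around it, with quartiles at -1.80 and 0.20. By summed reads, the medians of the early circRNAs were -0.21 for 4 to 9 reads, -0.63 for 10 to 19 and -1.21 for 20 or more, and those of the lasting ones -0.21, -1.02 and -0.83. Since at least 2 reads were required at each age, low sums limited how far a ratio could lie from 1, and no trend is read from these medians. Of the 199 early circRNAs with 4 to 9 reads, 40 were at least 2-fold lower and 25 at least 2-fold higher. Of the 77 lasting ones with 4 to 9 reads, 15 were lower and 7 higher. Of the early circRNAs with 20 or more reads, 32 of 53 were at least 2-fold lower and 1 was higher. Of the lasting ones, 57 of 123 were lower and 8 higher. The size of the drop depended on the scaling. TMM factors, which trim the most divergent circRNAs, raised every ratio by 0.54 on the log2 scale. The counts of early circRNAs were then 54 lower (34.0%) and 27 higher of 159, with a median of -0.25. Of the 212 lasting ones, 60 were then lower (28.3%) and 31 higher. The background over the 371 listed at both ages was 114 lower (30.7%) and 58 higher. Without a minimum of reads, the median over all 358 was -0.21 per depth and 0.33 with TMM, so its direction is not settled.

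**Figure D2:**
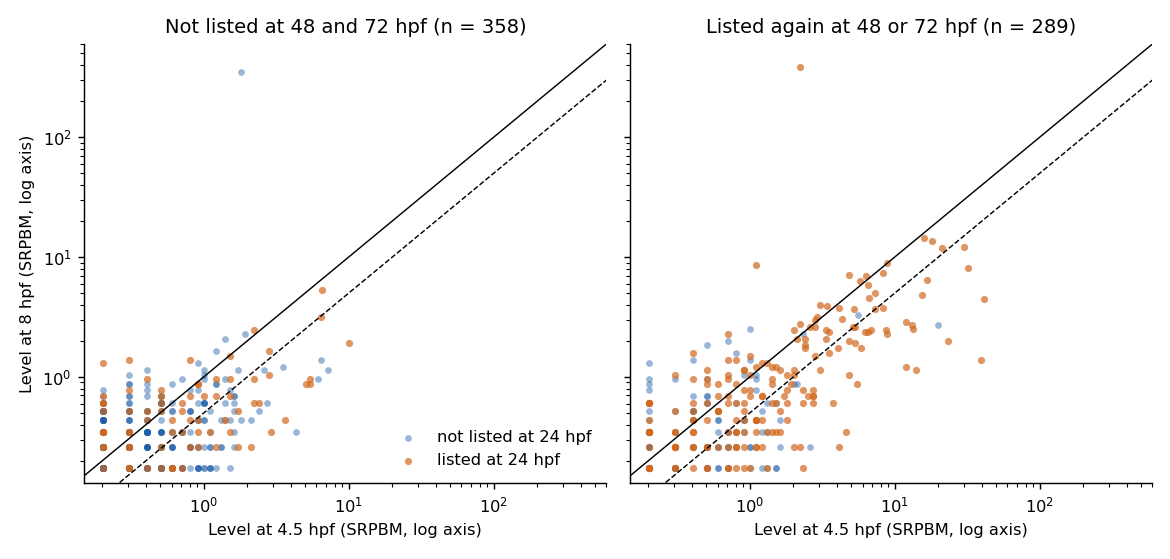
Level at 8 hpf against level at 4.5 hpf, both in SRPBM on log axes, for the 358 early circRNAs (left) and the 289 lasting ones (right), coloured by whether they were listed at 24 hpf. The solid line marks equal levels and the dashed line a 2-fold lower level at 8 hpf; both clouds lie mostly below the solid line, and the scaffold circRNA of each panel stands far above it.

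The steepest drops at 8 hpf, ranked by the interval bound nearest 1, included 3 circRNAs already described, of chromosomes 10 and 15. The largest ratio belonged to chromosome 3, 62092208 to 62102688, with 43, 4, 0, 0 and 0 reads, 12.5-fold lower at 8 hpf (4.53 to 47.8). Its end was shared by 4 later circRNAs, with 7, 6, 6 and 3 reads at 48 and 72 hpf together. All 4 were listed at 8 hpf and none at 4.5 hpf. Chromosome 5, 69092251 to 69100245, had 36, 5, 10, 0 and 0 reads. It was 8.34-fold lower at 8 hpf (3.26 to 27.2), while its level at 24 hpf, 1.03 SRPBM, was above the 0.436 SRPBM of 8 hpf but within counting error of it. Of the circRNAs that overlapped it by at least 50% of both spans, 69090333 to 69098940 had 10 reads at 48 hpf alone, and 69092713 to 69102616 had 14 at 24 hpf and 4 at 48 hpf. Higher levels at gastrula were rarer. Apart from the scaffold, only 2 of the early circRNAs with at least 10 reads were higher at 8 hpf with an interval above 1. On chromosome 7, 30325434 to 30333972 had 2, 15, 3, 0 and 0 reads (6.47-fold higher, 1.51 to 58.3). On chromosome 5, 12412734 to 12426295 had 3, 16, 2, 0 and 0 (4.60-fold higher, 1.32 to 24.7). Next in rank were 16028349 to 16031991 of chromosome 8, whose reads were 3 and 12 at these ages, and 3831347 to 3841261 of chromosome 3, whose reads were 4 and 13; both had intervals that held 1.

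The early and the lasting circRNAs differed at 24 hpf, the age that the rule did not use. The early ones were listed there in 75 of 358 cases (20.9%, 16.9 to 25.5) and the lasting ones in 191 of 289 (66.1%, 60.3 to 71.5). Since the lasting circRNAs had more reads, the shares were also set side by side within ranges of reads at 8 hpf. With 2 reads at 8 hpf, 10.6% of the early circRNAs were listed at 24 hpf (4.96 to 19.2) against 43.2% of the lasting ones (27.1 to 60.5). With 5 to 9 reads, the shares were 23.6% (16.1 to 32.7) and 63.9% (51.7 to 74.9). With 10 to 19 reads they were 41.7% (25.5 to 59.2) and 73.5% (58.9 to 85.1), and with 20 or more they were 57.1% of 7 circRNAs (18.4 to 90.1) and 90% of 60 (79.5 to 96.2). The early circRNAs were lower in each range. The intervals were apart up to 9 reads and overlapped in the last pair of ranges. Taken as 1 range of 10 or more reads, that pair gave 44.2% (29.1 to 60.1) and 82.6% (74.1 to 89.2), again apart. Abundance was not matched in the joined range, where the median at 8 hpf was 12 reads for the early circRNAs and 22 for the lasting ones. In ranges of reads at 4.5 hpf the intervals were apart in all 5, up to 62.5% (40.6 to 81.2) against 92.6% (84.6 to 97.2) for 20 or more reads. In that open range the medians at 4.5 hpf also differed, at 32 reads for the early circRNAs and 46 for the lasting ones. Absence at 24, 48 and 72 hpf has a common limit, since a circRNA close to the lowest listed count is missed by chance in any of them, and its part in the difference was not tested.

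**Figure D3:**
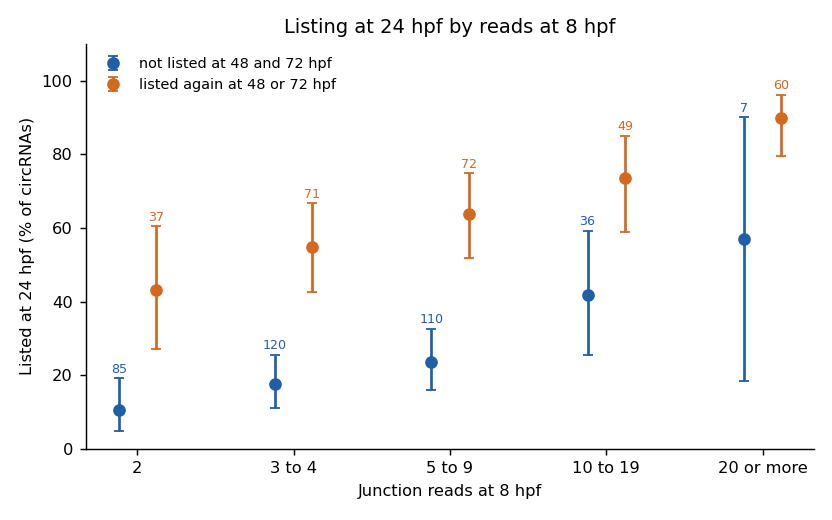
Share of circRNAs listed at 24 hpf, in percent with exact 95% binomial intervals, by junction reads at 8 hpf, for circRNAs not listed at 48 and 72 hpf (blue) and those listed again at 48 or 72 hpf (orange). The number over each interval is the number of circRNAs; the blue points lie below the orange ones in all 5 ranges.

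Summed levels were as follows. Without the scaffold circRNA, the 357 other early circRNAs had 2828 reads at 4.5 hpf, 1926 at 8 hpf and 370 at 24 hpf, which is 285.6, 167.9 and 38.1 SRPBM. Their sum was 1.70-fold lower at 8 than at 4.5 hpf (1.60 to 1.80) and 4.41-fold lower at 24 than at 8 hpf (3.94 to 4.94). With 1 read given to each of the 282 that were not listed at 24 hpf, the latter would be 2.50-fold, and with the 3 reads used for bounds 1.34-fold. The lasting circRNAs off the scaffold had 757.4, 369.4, 304.0, 291.4 and 384.6 SRPBM from 4.5 to 72 hpf, 2.05-fold lower at 8 hpf (1.97 to 2.13) and 1.21-fold lower from 8 to 24 hpf (1.16 to 1.27), or 1.10-fold with 3 reads for each unlisted one. As counted, the lasting circRNAs had their larger ratio before 8 hpf and the early ones after it. With 1 read for each unlisted one this order stayed, at 2.50-fold after 8 hpf against 1.70-fold before it for the early ones. Only with 3 reads for each, more than the lowest listed count of 2, was the early ratio after 8 hpf the smaller of their pair. Both sets were required to have reads at 4.5 and 8 hpf, so the sums at these ages come from selected values. The ratios of the sums are therefore descriptions. All of these sums are per depth, and their intervals treat the pooled reads of a set as 1 count and leave out the choice of scaling. TMM factors raised every ratio of 8 over 4.5 hpf by 0.54 on the log2 scale. No other scaling was applied to the step from 8 to 24 hpf, and the 24 hpf library had the fewest junction reads per depth of any library.

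The same step was seen in calls for individual circRNAs. Of the 66 early circRNAs with at least 10 reads over the 8 and 24 hpf libraries, 39 (59.1%) were at least 2-fold lower at 24 hpf, 24 of them as bounds because they were not listed, and 6 (9.09%) were higher. Over all circRNAs, the background was 44.6% lower and 24.1% higher. It includes circRNAs not listed at 8 hpf, which could only be higher, while the rule required reads at 8 hpf. Over circRNAs listed at 4.5 and 8 hpf, 45.1% were lower and 16.5% higher, and over the lasting ones 39.2% and 19.6%. Of the 75 early circRNAs listed at 24 hpf, 30 had a lower level at each step and 24 were higher at 24 than at 8 hpf. Most of these had few reads, with a median of 3 at 24 hpf, and 29 of the 75 had 2. The course over both steps was not counted for other circRNAs, so these counts describe the early set alone.

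A few early circRNAs were highest at 24 hpf, 10 of the 358. The clearest was on chromosome 8, 16653399 to 16666779, with 2, 4, 47, 0 and 0 reads, 13.9-fold higher at 24 than at 8 hpf (5.08 to 53.1). Against 24 hpf, it was at least 15.9-fold lower at 48 hpf and at least 13.2-fold lower at 72 hpf. Chromosome 5, 41370116 to 41375829, had 2, 3, 11, 0 and 0 reads (4.33-fold higher at 24 than at 8 hpf, 1.14 to 24.2). These entered the set through low counts at 4.5 and 8 hpf and did not follow the early course. Chromosome 5, 68904578 to 68913986, had 10, 8, 11, 0 and 0 reads, and chromosome 10, 24219736 to 24256336, had 22, 28, 10, 0 and 0. The former was steady within counting error over the 3 youngest libraries. By level, 226 of the 358 were highest at 4.5 hpf and 122 at 8 hpf, and many of these differences are no larger than counting error. The age of the highest level was not counted for other circRNAs.

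Early circRNAs spanned more of the genome than lasting ones at the median, as did circRNAs listed at 4.5 hpf only. Very long spans were fewer than among the lasting ones. The median span from start to end, introns included, was 9394 bp (7561 to 10408) against 6353 bp (5188 to 7868) for the lasting circRNAs and 5004 bp (4728 to 5261) for the 3377 circRNAs listed at 48 or 72 hpf and not at 4.5 or 8 hpf. The 1886 listed at 4.5 hpf only had a median of 8525 bp (7982 to 9296). Spans of 20 to 100 kb made up 22.6% of the early circRNAs (18.4 to 27.3), 14.9% of the lasting ones (10.98 to 19.5) and 24.7% of those listed at 4.5 hpf only (22.8 to 26.7). Spans over 100 kb made up 1.96% (0.790 to 3.99), 7.27% (4.55 to 10.9) and 4.51% (3.62 to 5.54). They made up 2.81% of those listed at 48 or 72 hpf and not at 4.5 or 8 hpf (2.28 to 3.43). Over the whole series the share was 3.49% (3.13 to 3.88). Between early and lasting circRNAs the intervals over 100 kb do not overlap, while those of the medians and of the 20 to 100 kb class do. The early circRNAs did not stand apart from those of 4.5 hpf only in median or in the classes of 20 to 100 kb and over 100 kb. Over 100 kb, the early interval also overlapped those of the later-listed circRNAs and of the whole series.

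**Figure D4:**
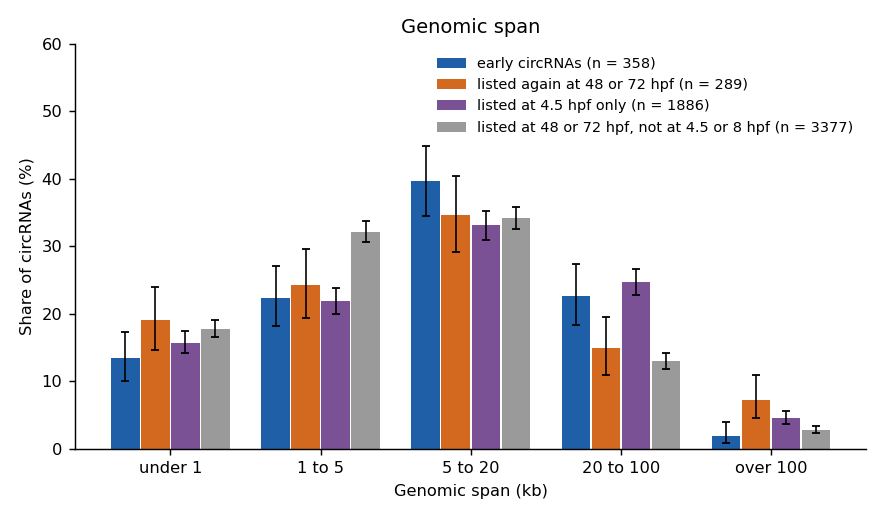
Share of circRNAs in 5 classes of genomic span in kb, as bars with exact 95% binomial intervals, for the 358 early circRNAs, the 289 lasting ones, the 1886 listed at 4.5 hpf only and the 3377 listed at 48 or 72 hpf but not at 4.5 or 8 hpf. From 20 to 100 kb, the early circRNAs (22.6%) and those of 4.5 hpf only (24.7%) have the higher shares, and over 100 kb the lasting ones do (7.27%).

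The differences in span depended on abundance. Below 10 reads at 4.5 hpf, the median was 9892 bp for 279 early circRNAs (7787 to 11420) and 4653.5 bp for 150 lasting ones (3597 to 6353). From 10 reads on, it was 7994 bp for 79 early circRNAs (4672 to 10524) and 8471 bp for 139 lasting ones (6282 to 12125), with intervals that overlapped. The share over 100 kb was the reverse. It was 1.27% of the early circRNAs (0.0320 to 6.85) against 12.2% of the lasting ones (7.29 to 18.9) from 10 reads on, and 2.15% (0.793 to 4.62) against 2.67% (0.731 to 6.69) below. The 28 circRNAs over 100 kb that were listed at both 4.5 and 8 hpf had a median of 25.5 reads at 4.5 hpf, the highest of the span classes, and 7 of them were early circRNAs. Among the early circRNAs themselves, spans were alike whatever the course. The median was 9380 bp for those listed at 24 hpf and 9545 bp for the others, and across the 159 with enough reads Spearman's rho between span and the ratio at 8 hpf was -0.030, as a description over circRNAs of the same libraries.

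The extremes of span mostly had few reads, apart from the longest, described above. The shortest was on chromosome 5, 49196065 to 49196149, at 84 bp with 4, 2, 0, 0 and 0 reads. The next were chromosome 1, 25967500 to 25967589, at 89 bp with 9, 10, 7, 0 and 0 reads, and scaffold KN150578.1, 63312 to 63418, at 106 bp with 9, 5, 2, 0 and 0. After the 361234 bp circRNA of chromosome 15, the longest were 49399446 to 49593003 of chromosome 14, for which 2, 2, 0, 0 and 0 reads were counted, and 51147165 to 51304712 of chromosome 13, for which 4, 6, 0, 0 and 0 were. Of these 6, the chromosome 1 and chromosome 15 ones alone had more than 2 reads at 24 hpf.

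The early circRNAs were scattered over the genome. All 25 chromosomes held some, 356 in all, and 2 lay on scaffolds. Chromosomes 3 and 9 held 23 each and chromosome 8 held 22. As a share of the circRNAs listed at both 4.5 and 8 hpf, the early ones made up 55.3% (51.4 to 59.2) over all. They made up 75.9% on chromosome 8 (22 of 29, 56.5 to 89.7), 35.7% on chromosome 1 (10 of 28, 18.6 to 55.9) and 30.4% on chromosome 21 (7 of 23, 13.2 to 52.9). The interval held the share over all on 23 of the 25 chromosomes, with chromosomes 8 and 21 outside, and no allowance was made for the number of chromosomes looked at. On chromosome 17, 0 of 20 early circRNAs were listed at 24 hpf, and on chromosome 15 the 19 early circRNAs had 333 reads at 4.5 hpf, the most of any chromosome. These were picked out after the values were seen.

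Clusters of early circRNAs were small. Merging overlapping early circRNAs with spans of at most 50 kb left 321 regions, of which 9 held 2 circRNAs and none more. In none of the 9 did any other circRNA of up to 50 kb overlap the region at 48 or 72 hpf. The region with most reads was on chromosome 10, 24219736 to 24256336, where 2 circRNAs shared their start and had 44, 39, 13, 0 and 0 reads together. On chromosome 8, 19724129 to 19770947, a pair that shared its end had 36, 25, 8, 0 and 0 reads. On chromosome 2, 31539466 to 31551002, a pair with a shared end had 22, 10, 0, 0 and 0 reads. In these 3 regions the summed reads were lower at each step up to 24 hpf. A longer circRNA, over 50 kb, that used the start of the chromosome 8 region had 2 reads at 72 hpf. The other pairs named by number of reads were both on chromosome 11, at 8689762 to 8705139 with 12, 14, 2, 0 and 0 reads and at 9217646 to 9259941 with 13, 13, 2, 0 and 0.

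Sharing of a start or an end was found in 27 of the 358 early circRNAs (7.54%, 5.03 to 10.8), in 13 sets. Of the 27, 6 shared a start and 22 an end, start and end being the lower and higher coordinate since the tables give no strand. Among the lasting circRNAs, 8 of 289 shared a start or an end with another lasting one (2.77%, 1.2 to 5.38), a share that also depends on how many circRNAs are in the set. The only set of 3 was on chromosome 16. There, 48039759 to 48134864 had 2 and 3 reads at 4.5 and 8 hpf, and the other two circRNAs divided the same stretch. They were 48039759 to 48073865, with 6 and 2 reads, and 48073671 to 48134864, with 6 and 4 reads and 2 more at 24 hpf. The inner ends of the latter pair overlapped by 194 bases. Of the 13 sets, 8 had no circRNA at 48 or 72 hpf that used the same start or end.

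For most early circRNAs nothing else at the same place outlasted them. Of the 330 with spans of at most 50 kb, 273 (82.7%, 78.2 to 86.6) were overlapped by no circRNA of at most 50 kb at 48 or 72 hpf. The same count for the lasting circRNAs, each left out of its own search, was 200 of 256 (78.1%, 72.6 to 83.0), so that the early circRNAs did not stand apart. A circRNA listed at 48 or 72 hpf overlapped at least 50% of both spans for 30 of the 358 (8.38%, 5.73 to 11.7), and shared a start or end with 59 (16.5%, 12.8 to 20.7). The lasting circRNAs had such a neighbour in 10.4% (7.11 to 14.5) and 17.3% of cases (13.1 to 22.2). No early circRNA had a later one within 10 bases at both ends, but 3 had one that used the same end and started within 102 bases. They were the 361234 bp circRNA of chromosome 15 (27 bases), 40317973 to 40326540 of chromosome 23 (96 bases) and 18798675 to 18806462 of chromosome 17 (102 bases). The later circRNA of the chromosome 15 pair was listed at 48 hpf alone, but the other pairs were listed side by side early. On chromosome 23 the later one had 30 and 46 reads at 4.5 and 8 hpf, against 2 and 2. On chromosome 17 it had 15 reads at 8 hpf, against 5. For 10 of the 358 early circRNAs there was a later circRNA with a span within 5% at another position within 100 kb. Whether these are 1 junction placed at different positions was not determined.

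Where a later circRNA did cover the same place, some were listed from the start and some only later. For 17 of the 30 early circRNAs, such a partner was already listed at 4.5 or 8 hpf, and for 13 all partners were listed from 24 hpf on only. A partner not listed early could also have had too few reads to be seen. The 42 partners had 156, 133, 216, 189 and 214 reads from 4.5 to 72 hpf, while the 30 early circRNAs had 236, 137, 90, 0 and 0. Of the 90 reads at 24 hpf, 47 belonged to the chromosome 8 circRNA, 16653399 to 16666779, whose partner at 16656395 to 16668464 had 2, 5, 95, 94 and 121 reads. Both had most of their early reads at 24 hpf, and only the partner was listed after that. Of the 42 partners, 20 had 2 or 3 reads at 48 and 72 hpf together, so that many of these places had little signal later.

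**Figure D5:**
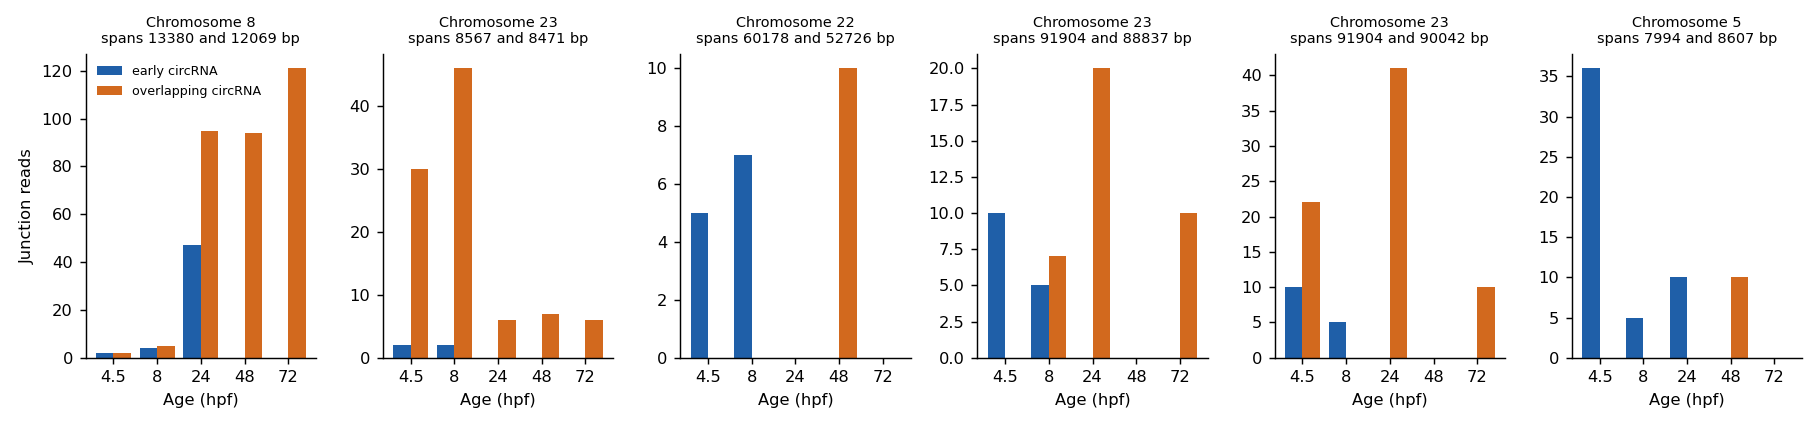
Junction reads at each age in hpf for the pairs of an early circRNA (blue) and a circRNA that overlapped at least 50% of both spans and had at least 10 reads at 48 and 72 hpf together (orange), each panel with its own linear axis. The blue bars end at 24 hpf or before, and the orange bars of the chromosome 8 pair reach 121 reads at 72 hpf.

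The other pairs with most later reads had different courses, 4 of them tied at 10 later reads, among them the chromosome 5 pair given above. On chromosome 23, 40317973 to 40326540 had 2, 2, 0, 0 and 0 reads, and its partner, which used the same end and started 96 bases further in, had 30, 46, 6, 7 and 6. Here the early circRNA was the minor form throughout. On chromosome 22, 26126737 to 26186915 had 5, 7, 0, 0 and 0 reads, and the circRNA at 26115467 to 26168193 had 10 reads at 48 hpf alone. Also on chromosome 23, 45454660 to 45546564 had 10, 5, 0, 0 and 0 reads, and its partners at 45460060 to 45548897 and 45486471 to 45576513 had 0, 7, 20, 0 and 10 and 22, 0, 41, 0 and 10. Both partners had spans within 5% of the early circRNA's 91904 bp, at shifted positions.

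Shared ends gave a further view of what stayed at a place. The 59 early circRNAs formed 77 pairs with a later circRNA at the same start (30 pairs) or end (47 pairs), and the later one was shorter in 45 pairs and longer in 32. The spans differed by a median of 23341 bp, the shorter lying within the longer, and the shorter covered a median of 35.9% of the longer, with at least 50% in 25 pairs. On chromosome 2, for example, 32095664 to 32106188 had 14, 5, 5, 0 and 0 reads, and the circRNA of 847 bp that used the same end, 32105341 to 32106188, had 7, 16, 12, 19 and 14. On chromosome 3, 7162722 to 7228268 had 6, 2, 8, 0 and 0 reads, and the circRNA from the same start to 7171872 had 18 reads at 72 hpf alone. In both of these pairs the later circRNA was the shorter one. Other later circRNAs also overlapped the chromosome 3 one. Among them were 7162722 to 7196146, with 4 reads at 48 hpf, and the longer 7163371 to 7284769, with 3 reads at 72 hpf. Chromosome 24 held both kinds, at 37086321 to 37118108, which had 5, 4, 0, 0 and 0 reads. From the same start, the longer circRNA to 37388923 had 0, 0, 3, 4 and 29 reads. The shorter one, to 37090985, had 12, 2, 0, 4 and 3. These examples were picked after the values were seen.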

How the data were processed

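Back-splice junction reads were listed for 5 libraries, 1 per age. The authors deposited whole-number counts of junction reads, not normalized, per library and in a series table of 1829 circRNAs; counts of both agreed, with 0 mismatches. The SRPBM score was deposited in the series table and is, within a library, the count times a constant. Per the submitters' processing notes, BWA 0.7.5a-r405 and edgeR 3.12.1 were used, without stated roles. No source used here names the circRNA caller or the build of the genome, so no sequence or gene was read by coordinates.

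Python 3.11.15, numpy 2.4.6, pandas 2.3.3, scipy 1.17.1 and matplotlib 3.10.9 were used, with TMM factors from edgeR 4.0.16 in R 4.3.3. Ratios are of counts times SRPBM per read and carry exact conditional 95% intervals for a pair of Poisson counts. A circRNA needed 10 reads over both libraries to enter a comparison, and a ratio of 2 to be counted as higher or lower. Unlisted circRNAs were set at 3 reads in bounds. Medians carry order-statistic intervals and shares Clopper-Pearson intervals, which treat circRNAs as independent. Since the reads carry no molecular identifiers, copies of 1 molecule may be counted more than once. Intervals of ratios cover counting error only, and no interval covers differences between libraries of the same age. The calculation was tested on simulated data.

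The early circRNAs named are the 10 with most reads at 4.5 and 8 hpf, the 5 lowest and 5 highest ratios at 8 hpf, the 5 with most reads at 24 hpf, the 3 shortest and 3 longest, the 5 regions with most circRNAs (ties by reads), and the 5 overlapping pairs with most later reads, plus 1 tied with the last. The members, lists and rules were chosen with earlier results of these data known.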

Additional observations from a re-analysis of the deposited data

How the results depend on the processing

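No paired analysis was possible because each age had 1 library, and for the same reason no library could be left out as a replicate. The limits are therefore counts and scaling. Of the 358 early circRNAs, 212 had at least 3 reads at both 4.5 and 8 hpf and 94 at least 5. The number at least 2-fold lower at 8 hpf, 76 of 159, was 32 of 53 with at least 20 reads over both libraries and 116 of 358 with no minimum. At a ratio of 4 it was 36 of 159. Among the lasting circRNAs, 57 of 123 were at least 2-fold lower with at least 20 reads and 117 of 289 with no minimum. The median log2 ratio over all 358, -0.21, turned to 0.33 with TMM factors and to 0.34 when scaled to total junction reads without scaffold KN150127.1; it was -0.80 with at least 10 reads and -1.21 with at least 20. With at least 10 reads the median was -0.25 under both of these scalings, an alternative added after the data were seen. Of the early circRNAs, 29.4% were listed at 24 hpf among those with at least 5 reads at 8 hpf and 34.2% among those with at least 10 at 4.5 hpf. The number at least 2 times above the setting for unlisted circRNAs, 108, was 272 with 1 read in place of 3 and 50 by the level at 8 hpf. The read-weighted median of the spans was 592 bp, and 9128 bp without the scaffold circRNA, also added later. A later circRNA at the same place was found for 89 early circRNAs by any overlap, 57 by any overlap with spans of at most 50 kb, 59 by a shared start or end, 7 by 90% of both spans and 0 within 10 bases at both ends. With all circRNAs of the 4.5 and 8 hpf libraries searched, 111 of 358 shared a start or end. Among those with at least 5 reads at 4.5 hpf, 8 of 177 shared one with each other. Regions of 2 or more numbered 1 with spans up to 10 kb and 16 with no limit. The scalings act through their factor, and the other settings through how many circRNAs or overlaps they let in.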
